A study of Mus musculus with 4 samples.

Results

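Immediate early genes and heat shock genes were followed in single cells of the mouse aorta. The set held 36 genes, chosen by name and by function, out of 18113 genes common to the 3 count tables: 26 early genes and 10 heat shock genes. All 36 were found once in each table. The study asked how cells of the ascending aorta of different embryonic origin respond to angiotensin II (AngII), a peptide that constricts arteries. Every mouse was male and of the Mef2c-mTmG strain. The strain name joins a Mef2c driver with mTmG, a reporter that exchanges a red for a green membrane protein in cells with Cre recombinase and in their descendants. Living single cells were sorted by this lineage label after enzymatic digestion. The library labelled SHF_Baseline held cells traced to the second heart field from untreated mice. The library labelled SHF_AngII held cells of the same origin after 3 days of AngII infusion. The library labelled CNC_AngII held cells sorted as the other origin after the same 3 days of infusion. Macrophages, gated as below, were 17.3% of its kept cells, against 0.14% in SHF_AngII. The label therefore names the sort and not the origin of every cell. A CNC baseline library was not analysed here. Ages, the number of mice behind a library, and the sort gates are not given in the sources used here.

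Immediate early genes are switched on within minutes of a stimulus, from promoters that need no new protein. Many encode transcription factors, such as the Fos and Jun proteins that pair as AP-1, and others encode proteins that shut the same signals off again. Heat shock genes encode chaperones that refold damaged proteins, and the factor HSF1 drives them from heat shock elements in their promoters. Both groups are known to respond when tissue is cut and digested into single cells, and both also respond to stretch, injury and growth signals in the artery wall.

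The promoters show how the gene groups are built. RefSeq (GRCm38.p6) gave a window of 250 bases before to 50 after the start for 21 of the 26 early genes and 8 of the 10 heat shock genes. Both strands were searched for GAANNTTC, the core of a heat shock element. It lay in the windows of 7 of the 8 heat shock genes (Hspa1a, Hspa1b, Hsph1, Dnaja1, Hspb1, Hspe1 and Bag3) and of 2 of the 21 early genes (Fosl2 and Jun). Of all 27025 genes with a window, 9.04% held it in at least 1 window. The full heat shock element, which extends this core, lay in Hsph1 and Hspe1, against 0.662% of all genes, and every such match contains the shorter core. The CArG box, the site of serum response factor, lay in Egr2 and Zfp36 (1.81% of all genes). The cAMP response element TGACGTCA lay in Maff, Btg2 and Dusp1 (2.03%). TGANTCA, the AP-1 site, lay in Bag3 and in none of the 21 early genes (8.97%). A match is a description of the letters and not a shown binding site. Stretches of 100 bases are shown for genes on which the results turn, each read 5′ to 3′, with the motif in capitals. They come from RefSeq windows of Hspa1a (chr17:34972207-34972306, minus strand), Hspa1b (chr17:34959289-34959388, minus), Hspb1 (chr5:135887769-135887868, plus), Hspe1 (chr1:55087998-55088097, plus), Zfp36 (chr7:28379229-28379328, minus) and Btg2 (chr1:134079256-134079355, minus).
Hspa1a: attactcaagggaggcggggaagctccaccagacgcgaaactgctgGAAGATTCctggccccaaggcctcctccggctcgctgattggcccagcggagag
Hspa1b: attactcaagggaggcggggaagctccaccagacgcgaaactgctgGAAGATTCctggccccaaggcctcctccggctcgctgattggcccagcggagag
Hspb1: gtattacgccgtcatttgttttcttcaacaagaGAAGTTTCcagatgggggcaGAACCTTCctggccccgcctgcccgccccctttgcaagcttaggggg
Hspe1: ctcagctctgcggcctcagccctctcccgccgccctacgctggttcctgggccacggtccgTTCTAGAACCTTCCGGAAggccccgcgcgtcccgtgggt
Zfp36: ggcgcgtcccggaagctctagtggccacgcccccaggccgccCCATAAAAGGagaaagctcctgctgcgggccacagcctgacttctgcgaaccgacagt
Btg2: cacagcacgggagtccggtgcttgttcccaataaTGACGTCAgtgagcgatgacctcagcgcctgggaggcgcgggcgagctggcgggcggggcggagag
The Hspa1a and Hspa1b genes are near-identical neighbours, and 247 of the 250 bases before their starts (98.8%) are the same. Reads of the pair may have been split between them by the counting, so their separate values are uncertain. Counts of genes past the fold take them as 2 genes, though they may carry 1 signal. Their summed level is given with the main comparisons, and cells were read by the sum.

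Cells were gated by unique molecular identifiers (UMIs, 1 per captured RNA molecule). Smooth muscle cells had at least 5 Myh11 UMIs and no Pdgfra, fibroblasts had at least 1 Pdgfra and at most 2 Myh11, and macrophages had at least 10 UMIs of C1qa, C1qb and Lyz2 together and fewer than 5 of Myh11. In the order SHF_Baseline, SHF_AngII and CNC_AngII, the smooth muscle gate held 2259, 4649 and 6385 cells, the fibroblast gate 3939, 2640 and 842, and the macrophage gate 8, 13 and 1764. Median depth was 12441, 13336 and 13450 UMIs per smooth muscle cell and 9534, 15486 and 12380 per fibroblast. All 7 smooth muscle and all 7 fibroblast markers had UMIs in the fibroblast gate of each library, so detection does not separate the gates. Levels (CPM, UMI counts scaled to a fixed library total) differed. Smooth muscle markers summed to 57227, 64211 and 57886 CPM in the smooth muscle gate, and to 1303, 4067 and 3976 in fibroblasts. Fibroblast markers summed to 2642, 3273 and 3376 CPM in the smooth muscle gate, and to 31882, 19811 and 17092 in fibroblasts. The lists include Myh11 and Pdgfra, which set the gates. The few macrophage-gated cells of the SHF libraries held macrophage and fibroblast markers together. Their macrophage markers summed to 12943 and 9699 CPM, against 31386 CPM in CNC_AngII. Their fibroblast markers summed to 10764 and 6261 CPM, against 164 CPM in CNC_AngII. Smooth muscle markers in them summed to 177 and 6888 CPM, against 419 CPM in CNC_AngII. Cardiomyocyte markers summed to 0 and 1901 CPM, against 0.915 CPM. These few cells enter no ratio. Pairs of libraries shared 29 to 34 barcode sequences, and 1, 2 and 8 cells passed both the fibroblast and the macrophage gate.

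With 1 library in each group, differences between libraries have no replicates behind them and were not tested. Values are CPM over all UMIs of the gated cells. Ratios are log2((CPM + 1)/(CPM + 1)), and the 95% intervals in brackets cover counting error only. A gene is called past the fold at a ratio of 1.5 or more either way and a mean of at least 10 CPM.

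In smooth muscle cells, early genes were lower in the SHF_AngII library than in SHF_Baseline. The 26 genes together held 17741 CPM [17693 to 17789] in SHF_Baseline, 10543 CPM [10519 to 10567] in SHF_AngII and 9574 CPM [9554 to 9594] in CNC_AngII. Among the 25 past the minimum, 16 were lower by the fold, against 15.6% of all 7001 genes, and 1, Egr3, was higher by it, against 8.76%. The early median was -0.81, and that of all genes was -0.10. TMM scaling, an alternative library scaling, moves the all-gene median of this comparison by 0.15, and the early median is then -0.65.

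The AP-1 genes differed among themselves in size. Fos, the most rapidly induced member, stood at 3504 CPM in SHF_Baseline, 2665 in SHF_AngII and 2272 in CNC_AngII, a log2 ratio of -0.39 [-0.41 to -0.38] between the SHF libraries. Junb, a Jun protein that also restrains AP-1, stood at 1627, 894 and 776 CPM, a ratio of -0.86 [-0.88 to -0.85]. Jun, the canonical partner of Fos, had -0.81 and Atf3, a stress-induced repressor of the wider family, also had -0.81. All 8 AP-1 genes past the minimum were lower (58.8% of all genes were), 4 of them by the fold, and the ratios ran from -0.93 for Fosl2 to -0.02 for Maff, a small Maf protein without an activation domain. Fosl1 was under the minimum, with 153, 468 and 921 UMIs in the gate.

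The zinc finger factors, nuclear receptors and other early transcription factors had a median of -0.87, with 7 of 9 lower and 1, Egr3, higher by the fold, where the AP-1 median was -0.69. Egr1, a growth-factor-induced transcription factor, stood at 1708 CPM in SHF_Baseline, 701 in SHF_AngII and 682 in CNC_AngII, a ratio of -1.28 [-1.30 to -1.27]. Both AngII libraries were thus below the baseline library and close to each other. The orphan nuclear receptor Nr4a2 stood at 135, 48.3 and 55.6 CPM (-1.46), Nr4a3 at 71.5, 27.8 and 32.0 CPM (-1.33) and Nr4a1 at 475, 233 and 221 CPM (-1.03). Klf6 had -0.87 and Klf2, a flow-responsive factor, had -0.59, just past the fold, where Fosb at -0.57 lay just short of it. Myc, a growth regulator, had -0.50. Egr3 went the other way: 3 UMIs in SHF_Baseline against 1384 in SHF_AngII and 2296 in CNC_AngII, or 0.102, 19.9 and 23.9 CPM. It was near 0 in the baseline fibroblasts too (8 UMIs). The baseline table lists 18760 genes where both AngII tables list 32285, so counting and treatment cannot be told apart for this gene. That difference between the tables lies under every ratio of an AngII library over SHF_Baseline, so the limit is not confined to Egr3.

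Among the genes that end early signals, the phosphatase gene Dusp1, which switches off MAP kinases, stood at 1112 CPM in SHF_Baseline, 561 in SHF_AngII and 531 in CNC_AngII (-0.99 [-1.01 to -0.97]). Btg2, an antiproliferative cofactor, stood at 1565, 572 and 513 CPM (-1.45). Zfp36, which directs decay of cytokine RNAs, stood at 670, 284 and 280 CPM (-1.23), and Socs3, an inhibitor of cytokine receptors, at 286, 115 and 95.2 CPM (-1.31). These 4 genes were lower by more than Fos was. Ier3, an early gene linked to cell survival, stood apart from the list at 225, 336 and 329 CPM, a ratio of 0.58 [0.54 to 0.62] just short of the fold.

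**Figure D1:**
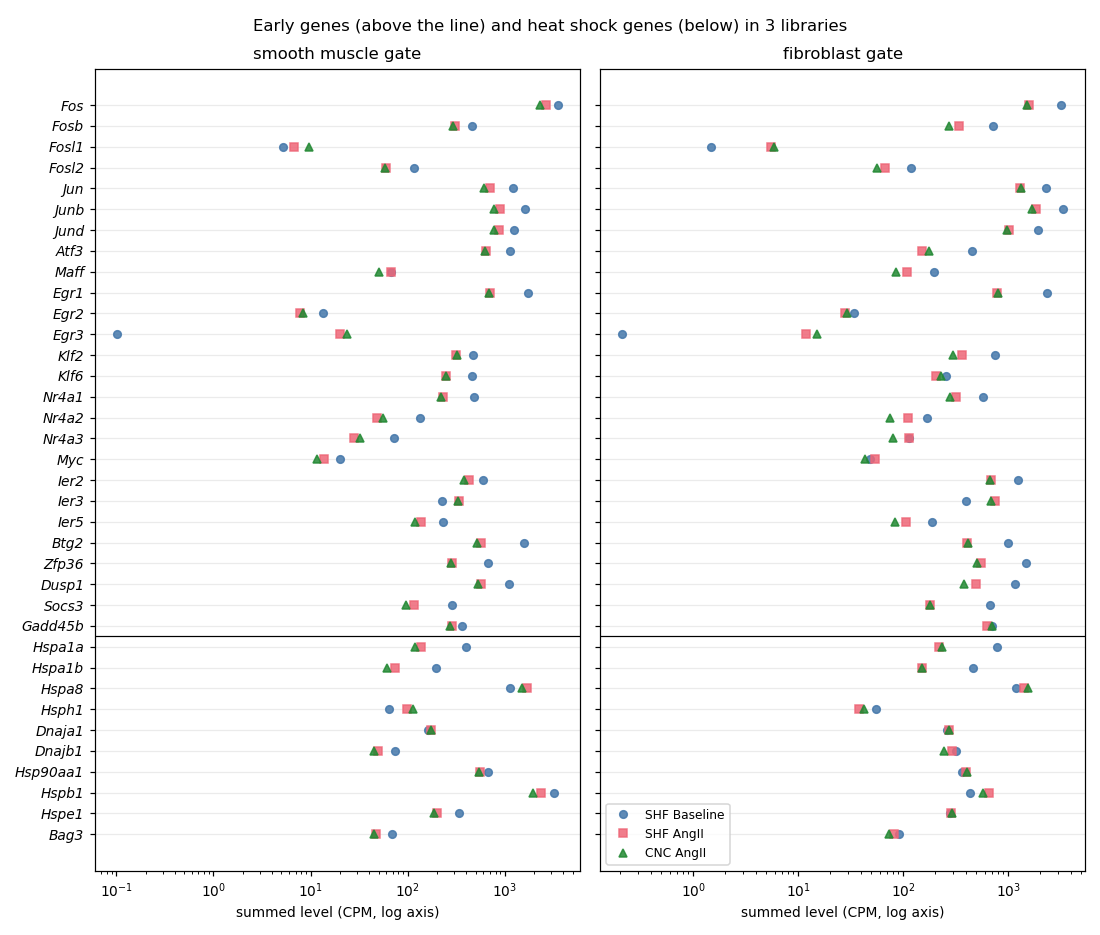
Summed level (CPM, logarithmic axis) of each of the 36 members in the smooth muscle gate (left) and the fibroblast gate (right) of the 3 libraries, 1 point per library. The SHF AngII and CNC AngII points lie close together for most genes while SHF Baseline lies apart, as for Egr1 at 1708 against 701 and 682 CPM. Levels are compared within a gene, not between genes.

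The same contrast in fibroblasts gave a similar median for early genes. Their sum was 23390 CPM [23341 to 23438] in SHF_Baseline, 12232 CPM in SHF_AngII and 11581 CPM in CNC_AngII. Of the 24 past the minimum, 17 were lower by the fold and 1, Ier3, was higher by it. The share of all 7694 genes was 27.6% lower and 10.5% higher. The early median was -0.85 and that of all genes -0.21, or -0.64 and -0.01 under TMM scaling.

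Several members stood at different ratios in the 2 cell types. Fos in fibroblasts stood at 3180 CPM in SHF_Baseline, 1598 in SHF_AngII and 1501 in CNC_AngII, a ratio of -0.99 [-1.01 to -0.98] against -0.39 in smooth muscle. Maff, nearly level in smooth muscle, had -0.84 [-0.90 to -0.80] in fibroblasts. Nr4a3 was the reverse case, with 0.02 [-0.04 to 0.08] in fibroblasts against -1.33 in smooth muscle. Atf3 had -1.59 and Socs3 -1.89, the lowest ratio among the early genes in fibroblasts. All 8 AP-1 genes past the minimum were lower by the fold in fibroblasts (27.6% of all genes), against 4 of 8 in smooth muscle (15.6%). The AP-1 median in fibroblasts was -0.90 and that of the other early transcription factors -0.43, the reverse order to smooth muscle. Whether these differences between the cell types hold beyond 1 library a group was not tested.

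Heat shock genes did not share one direction. In smooth muscle the median of the 10 was -0.49, with 3 lower and 1 higher by the fold (15.6% and 8.76% of all genes; 2 and 2 of the 10 under TMM scaling). In fibroblasts it was -0.05, with 2 lower and 0 higher (27.6% and 10.5%); under TMM scaling the fibroblast median has the other sign, 0.16, with 2 lower and 1 higher. The inducible Hsp70 pair had the lowest ratios in both cell types, and its 2 genes were the 2 lower by the fold in fibroblasts. Hspa1a stood at 396 CPM [389 to 403] in SHF_Baseline, 137 in SHF_AngII and 118 in CNC_AngII in smooth muscle (-1.52), and at 790, 218 and 233 CPM in fibroblasts (-1.85). Hspa1b followed with -1.40 and -1.60. Summed, the pair stood at 590, 210.4 and 179 CPM in smooth muscle (-1.48) and at 1255, 371 and 384 CPM in fibroblasts (-1.76). The constitutive Hsp70 gene Hspa8, which clathrin uncoating and folding depend on, was higher: 1132, 1670 and 1499 CPM in smooth muscle (0.56) and 1201, 1421 and 1559 CPM in fibroblasts (0.24). Thus the inducible and the constitutive members of 1 family stood in opposite directions in both gates.

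Hsph1 and Hspb1 had opposite signs in the 2 cell types. Hsph1, an Hsp110 that recharges Hsp70, stood at 63.4, 98.6 and 113 CPM in smooth muscle (0.63 [0.56 to 0.71]) and at 55.7, 38.1 and 42.3 CPM in fibroblasts (-0.54 [-0.64 to -0.45]). Hspb1, a small heat shock protein that binds actin, stood at 3218, 2353 and 1961 CPM in smooth muscle (-0.45) and at 437, 654 and 573 CPM in fibroblasts (0.58, just short of the fold). Summed smooth muscle markers moved with Hspb1 in the fibroblast gate, at 1303, 4067 and 3976 CPM, and Acta2 there stood at 1.97%, 5.58% and 5.91% of its smooth muscle level. Their part in the fibroblast ratio was not tested. Hspe1, the mitochondrial Hsp10, had -0.74 in smooth muscle, past the fold, and 0.05 in fibroblasts. None of 4 others passed the fold in either cell type: the Hsp40 genes Dnajb1 (-0.56 and -0.14) and Dnaja1 (0.09 and 0.04), Hsp90aa1 (-0.26 and 0.12) and the co-chaperone Bag3 (-0.54 and -0.16), each given for smooth muscle and then fibroblasts. The median mitochondrial share moved with the contrast, at 7.36% and 5.43% of UMIs in smooth muscle and 4.09% and 2.82% in fibroblasts for SHF_Baseline and SHF_AngII. Its part in the ratios was not tested. Under a filter of 1000 genes and a mitochondrial share of no more than 5%, 120 baseline smooth muscle cells remained and the early median was -0.99.

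**Figure D2:**
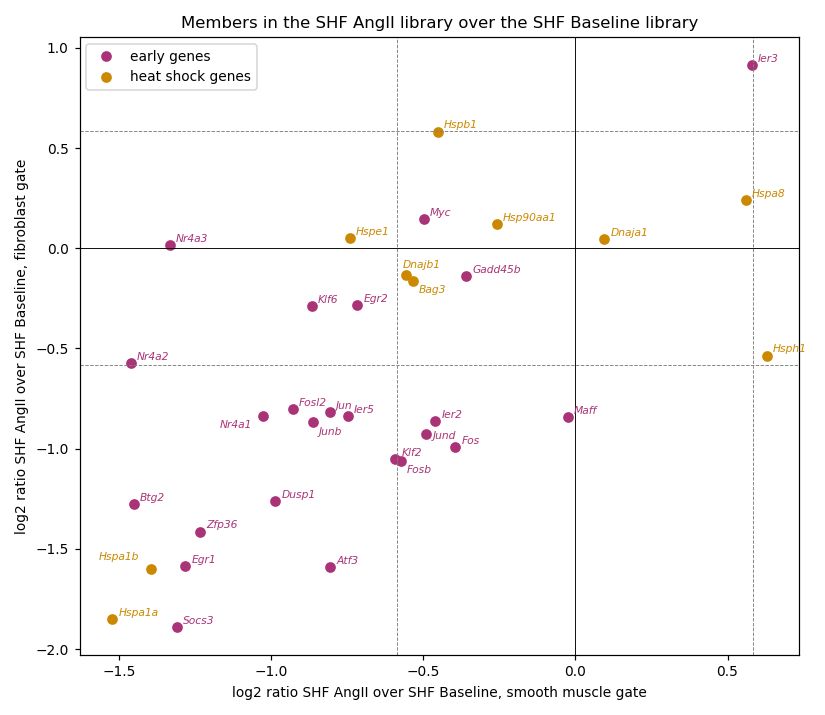
Log2 ratio of SHF AngII over SHF Baseline for each member past the minimum in both gates, smooth muscle on the horizontal and fibroblasts on the vertical axis; dashed lines mark 1.5-fold. Most early genes lie in the lower left, as do Hspa1a and Hspa1b, and Hsph1 and Hspb1 lie in opposite quadrants.

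Other genes of the 2 programmes were read from wider lists. Of 40 further early genes 33 passed the minimum in smooth muscle, and 18 were lower and 2 higher by the fold (15.6% and 8.76% of all genes). The lowest were Gadd45g, a stress gene of growth arrest (-1.31), the transcription factor gene Cebpb (-1.04) and Tob2 (-0.99). The highest were Nfkbia, the inhibitor of NF-kappaB (0.999), Ptgs2, which encodes cyclooxygenase-2 (0.84), and Ccn2, a matrix-associated growth factor (0.45). Of 31 further chaperone and stress genes 29 passed, with 6 lower and 3 higher by the fold, shares close to those of all genes (15.6% and 8.76%). Among the lowest were the Hsp90 activator Ahsa1 (-0.91) and Hspa2 (-0.70). The highest were the small heat shock genes Hspb7 (245 CPM in SHF_Baseline, 692 in SHF_AngII and 674 in CNC_AngII, 1.49), Cryab (0.80) and Hspb6 (0.34). In fibroblasts 15 of 32 wider early genes were lower and 4 higher by the fold, and 3 of 28 wider chaperone genes were lower and 7 higher, where 27.6% of all genes were lower and 10.5% higher.

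Between the 2 AngII libraries, sorted as different origins, few genes of any kind passed the fold in CNC_AngII over SHF_AngII. In smooth muscle 0 of the 34 members past the minimum did, against 0.946% of 6766 genes higher and 0.99% lower, so this count says nothing particular to the members. The early median was -0.08 and the heat shock median -0.13, beside 0.00 for all genes. All 8 AP-1 genes past the minimum were on the lower side, from Maff (-0.38 [-0.44 to -0.33]) and Fos (-0.23 [-0.24 to -0.22]) to Fosl2 (-0.04 [-0.10 to 0.02]), where 48.3% of all genes were on the lower side. Hspa1b (-0.26), Hspb1 (-0.26) and Hspa1a (-0.21; the pair summed, -0.23) were lower and Hsph1 (0.20), Nr4a2 (0.20) and Nr4a3 (0.20) higher. In fibroblasts 0 of the 35 members past the minimum passed the fold (1.25% of 7216 genes higher and 1.07% lower), with medians of -0.11 for early and 0.01 for heat shock genes; under TMM scaling 1 early gene passed it on the lower side and the heat shock median was -0.01. Nr4a2 (-0.58 [-0.69 to -0.48]) and Nr4a3 (-0.50 [-0.61 to -0.41]) were the lowest there, opposite in sign to smooth muscle. Set directly beside SHF_Baseline, which differs from it in origin and treatment and also serves the comparison above, CNC_AngII had early medians of -0.87 in smooth muscle (20 of 25 lower by the fold, 17.3% of all genes) and -1.07 in fibroblasts (18 of 24, 27.2%), and heat shock medians of -0.65 in smooth muscle, with 6 of 10 lower and 1 higher by the fold (17.3% and 10.6%), and -0.13 in fibroblasts, with 2 of 10 lower and 0 higher (27.2% and 11.4%). Summed macrophage markers reached 341 CPM in smooth muscle cells of CNC_AngII against 1.41 CPM in SHF_AngII, and cardiomyocyte markers 54.9 against 482 CPM. The part of either in these ratios was not tested.

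Within each library, fibroblasts and smooth muscle cells went through the same digestion and the same counting. Dnajb1 set the 2 cell types farthest apart among the higher members: 322 CPM in fibroblasts against 74.0 in smooth muscle in SHF_Baseline (2.11), 293 against 49.98 in SHF_AngII (2.53) and 244 against 44.6 in CNC_AngII (2.43). Hspb1 was the counterpart, at 437 against 3218 CPM (-2.88), 654 against 2353 (-1.84) and 573 against 1961 (-1.77). The Hsp40 gene was thus higher in fibroblasts and the small heat shock gene higher in smooth muscle in every library. Hspa1a, like Dnajb1, was higher in fibroblasts (0.996, 0.67 and 0.97; the pair summed, 1.09, 0.81 and 1.10). Hsph1 was near level at baseline (-0.19) and lower in fibroblasts in both AngII libraries (-1.35 and -1.40).

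Early genes also leaned to fibroblasts, with exceptions. Junb had ratios of 1.04, 1.03 and 1.12 and Jun 0.93, 0.92 and 1.13. Myc (1.24, 1.88 and 1.81), Egr2, a sister of Egr1 (1.28, 1.72 and 1.70), Nr4a3 (0.66, 2.01 and 1.31), and the stress gene Gadd45b (0.95, 1.17 and 1.37) were higher in fibroblasts throughout. Fos had -0.14, -0.74 and -0.60, and Atf3 -1.31, -2.10 and -1.79. Fos and its partners Jun and Junb thus lay on opposite sides of level. Fibroblasts were higher by the fold in all 3 libraries for 11 of the 26 early and 4 of the 10 heat shock genes, against 15.0% of the 6734 genes past the minimum in each library. They were lower by it in all 3 for 1 early gene (Atf3) and 1 heat shock gene (Hspb1), against 9.83%. TMM scaling moves the all-gene median of these ratios by -0.27 to -0.22. It changes the early genes higher and lower by the fold from 14 and 3 to 9 and 3 in SHF_Baseline, from 12 and 3 to 9 and 5 in SHF_AngII and from 11 and 3 to 10 and 5 in CNC_AngII. Of all genes, without TMM scaling, 24.6%, 22.6% and 21.7% were higher and 12.0%, 15.3% and 14.9% lower by the fold in the 3 libraries. The all-gene shares under TMM scaling are not given. The heat shock genes change from 4 and 2 to 3 and 2, from 5 and 2 to 2 and 3, and from 6 and 2 to 3 and 3.

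**Figure D3:**
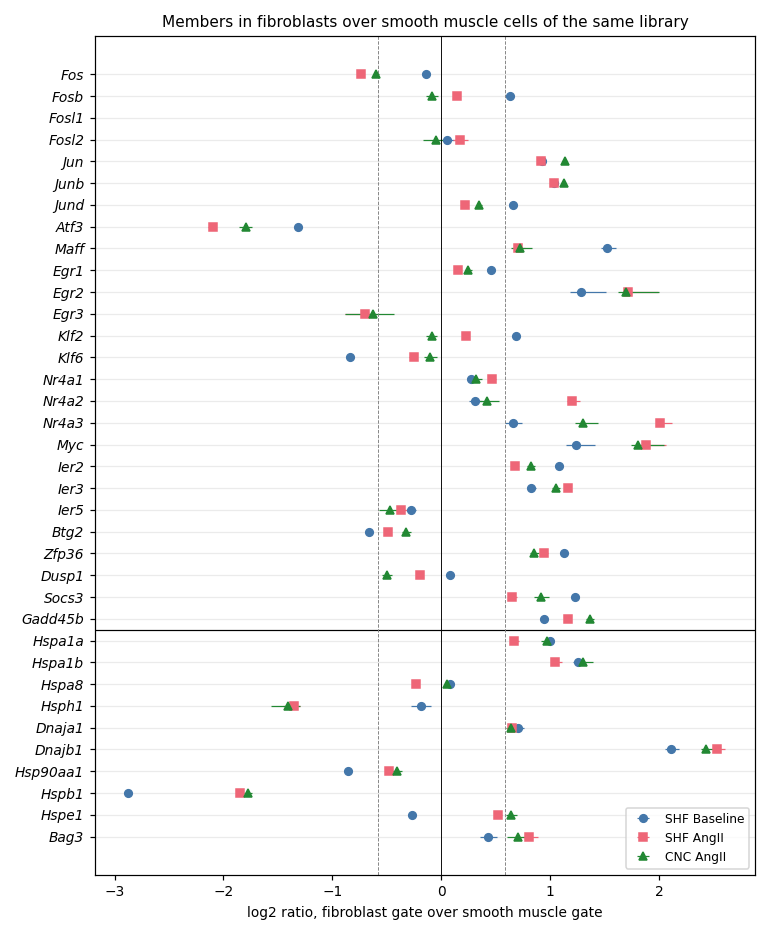
Log2 ratio of the fibroblast gate over the smooth muscle gate for each member past the minimum, 1 point per library, with 95% counting intervals; dashed lines mark 1.5-fold. Dnajb1 lies beyond 2 and Hspb1 beyond -1.7 in all 3 libraries, and Hsph1 lies at -0.19 in SHF Baseline and at -1.35 and -1.40 in the AngII libraries.

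Macrophages of CNC_AngII carried fewer early transcripts than the structural cells beside them. The list sum was 6647 CPM [6612 to 6682], against 9574 in smooth muscle and 11581 in fibroblasts. Over smooth muscle, 13 of 25 early genes were lower and 4 higher by the fold, where 24.4% of all 7575 genes were lower and 34.8% higher (13 lower and 2 higher under TMM scaling). Egr1 stood at 161 CPM in macrophages, 682 in smooth muscle and 810 in fibroblasts (-2.07 [-2.13 to -2.03] over smooth muscle). Fos stood at 676, 2272 and 1501 CPM. Those higher by the fold were Egr2 (1.15), which macrophages are known to use, Zfp36 (0.92), Klf6 (0.69) and Socs3 (0.59). Over fibroblasts, 14 of 24 were lower and 3 higher (24.3% and 28.2% of 7748 genes), the 3 being Atf3 (1.04), Ier5 (0.94) and Klf6 (0.79).

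Of the heat shock genes, the Hsp70 pair was higher in macrophages than in smooth muscle, with Hspa1a at 287 against 118 CPM (1.27) and the summed pair at 416 against 179 CPM (1.21). Hspb1 stood at 47.9 against 1961 CPM (-5.33). The macrophage level of Hspb1 was 2.44% of that of smooth muscle, while the smooth muscle genes Cnn1, Acta2 and Tagln stood at 0.925%, 0.765% and 0.516%. Hspb1, Cnn1, Acta2 and Tagln were thus all low in macrophages. Myh11 stood at 0.971%, but the gates themselves set it low there. Hsph1 (-2.32) and Bag3 (-1.25) were lower too.

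Cell-to-cell spread was read after drawing each cell down to 3000 UMIs, which left out 10, 14 and 3 smooth muscle cells, 345, 46 and 21 fibroblasts and 18 macrophages. A smooth muscle cell then held a mean of 52.4 early UMIs in SHF_Baseline, 32.0 in SHF_AngII and 29.5 in CNC_AngII, and a fibroblast 70.7, 37.4 and 36.015. The middle 50% of baseline smooth muscle cells ran from 25 to 76. In the AngII libraries it ran from 17 to 44 and from 15 to 40, so the distributions overlapped. A macrophage held 22.1. Without thinning, the baseline mean was 232 UMIs.

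Hspb1 was spread unevenly in the baseline library. Its Fano factor, the variance over the mean, was 16.9 in smooth muscle of SHF_Baseline, 3.97 in SHF_AngII and 3.32 in CNC_AngII, at means of 9.58, 7.04 and 6.10 UMIs. The highest cells held 181, 78 and 53 of their 3000 UMIs. The top 10% of cells held 40.0% of all Hspb1 UMIs at baseline against 26.4% and 26.01%. For Hspa1a and Hspa1b together the top 10% held 47.6% to 53.0% in all 7 groups of cells.

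Most early genes went together within cells. Of those with a value, 22 to 25 of 25 or 26 had a Spearman correlation with the sum of the other early genes above the 95th percentile of genes outside the list, and the median over the early genes was 0.32 to 0.41 in the 7 groups. Fosl1 was the exception in 6 groups, Egr3 in 3, and Klf2 and Myc in macrophages. The correlation reached 0.64 to 0.72 for Fos, 0.58 to 0.75 for Junb and 0.45 to 0.73 for Zfp36 over the 7 groups of 821 to 6382 thinned cells. For genes outside the list with at least 0.1 UMIs a cell, the middle 90% of correlations with the early sum never went beyond -0.12 or 0.10. The correlation is given as a description, since cells of a library share its preparation.

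Heat shock genes followed the early sum one by one and not as a group. Dnajb1 had correlations of 0.17, 0.12 and 0.11 in smooth muscle and 0.35, 0.26 and 0.24 in fibroblasts, and Hspa8 had 0.23, 0.14 and 0.13 and 0.40, 0.15 and 0.19, in the order SHF_Baseline, SHF_AngII and CNC_AngII. Both lay above the middle 90% of other genes in each of these 6 groups. Hspb1, Hspe1 and Hsph1 stayed between -0.08 and 0.08 in all 7 groups. Between the 25% of baseline fibroblasts with fewest early UMIs and the 25% with most, mean Dnajb1 went from 0.186 to 1.96 UMIs, 10.5-fold, and Hspb1 from 0.935 to 0.931 by way of 1.61 and 1.49 in the 2 classes of 25% between them. With cells drawn down to 5000 UMIs Dnajb1 went from 0.190 to 3.16 UMIs, 16.6-fold. That draw left out 717 of the 3939 baseline fibroblasts, against 345 at 3000 UMIs, so the 2 folds cover different sets of cells. In the AngII fibroblasts the Dnajb1 fold was 5.58 and 5.42, and in smooth muscle 3.90, 2.99 and 2.37. These classes are ranges of one score: 205 and 406 of the 3594 baseline fibroblasts lay within 10% of the lower and the upper bound.

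The inducible Hsp70 pair stood differently to the early sum in different cells and libraries. The correlation of Hspa1a and Hspa1b together with the early sum was -0.10 in baseline smooth muscle, 0.09 and 0.10 in the 2 AngII libraries, between -0.02 and 0.04 in fibroblasts and 0.22 in macrophages. In fibroblasts the values near 0 came with a course that was not straight. From the 25% of cells with fewest early UMIs to the 25% with most, in steps of 25%, the pair had means of 2.01, 4.81, 4.27 and 3.04 UMIs in SHF_Baseline, 0.871, 1.97, 1.15 and 0.955 in SHF_AngII and 0.660, 2.02, 1.32 and 0.795 in CNC_AngII. The 25% next to the lowest thus held the most in each library. In baseline smooth muscle the same steps gave 2.12, 2.41, 1.62 and 1.39 UMIs, so there too the 25% next to the lowest held the most. Between the lowest and the highest 25% by early UMIs the pair went from 0.487 to 1.85 UMIs, or 3.79-fold, in macrophages. In baseline smooth muscle, cells with many early transcripts thus held fewer Hsp70 transcripts once depth was made equal; without thinning that correlation was 0.023. The early sum had correlations of -0.23 with the mitochondrial share in baseline smooth muscle and -0.25 with depth before thinning in macrophages; their part was not tested.

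**Figure D4:**
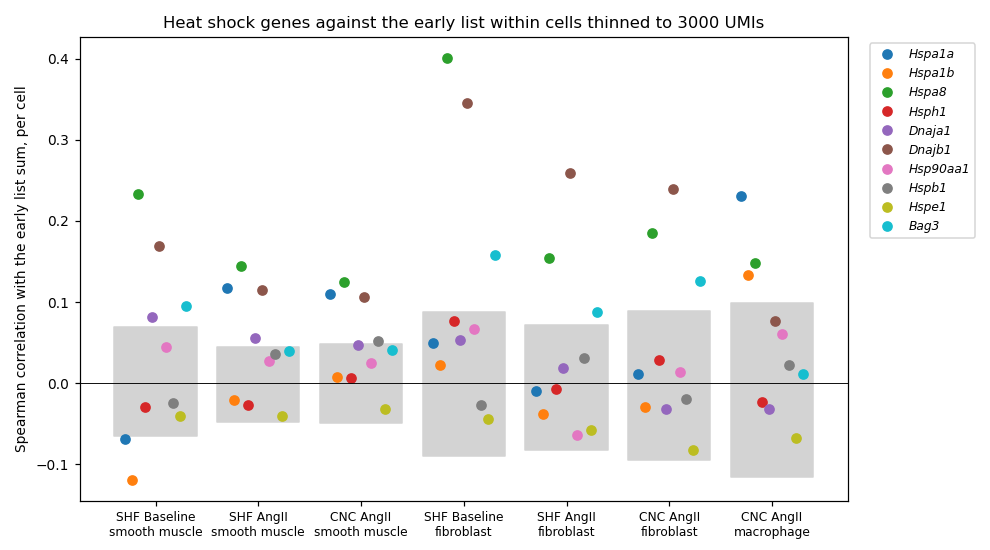
Spearman correlation of each heat shock gene with the summed early genes across cells thinned to 3000 UMIs, for 7 groups of cells; grey bars span the middle 90% of correlations of all other genes with at least 0.1 UMIs a cell. Hspa8 and Dnajb1 lie above the grey bar in all smooth muscle and fibroblast groups, and Hspa1a and Hspa1b range from below it to above it.

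The uneven Hspb1 of baseline smooth muscle came with other chaperones. The 226 cells in the top 10% by Hspb1 share, at 6770 CPM or more, were set against the other 2033. Hspe1 was higher in them by 1.37 [1.30 to 1.44], Hsp90aa1 by 1.32 and Hsph1 by 0.84, so 3 of the 9 other heat shock genes passed the fold, against 0.613% of 7014 genes. Of the 29 wider chaperone genes past the minimum 9 did, among them the Hsp90 co-chaperone Stip1 (1.43), the lens and muscle chaperone Cryab (1.004), the mitochondrial Hsp60 gene Hspd1 (0.93), Hspa4l (0.92), Ahsa1 (0.87), Hsp90ab1 (0.76) and Fkbp4 (0.70). Hspa1a (-0.11), Hspa1b (-0.19) and Dnajb1 (-0.30) were not higher, and 1 wider gene, Hmox1 (-0.83), was lower by the fold (1.82%). These genes were named after their values were seen.

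The same cut in the AngII libraries put no heat shock gene past the fold on the higher side. In SHF_AngII 0 of 9 heat shock and 0 of 30 wider genes passed it in 465 top cells (0.18% of genes), and 0 were lower by it (0.51%), and in CNC_AngII 0 of 9 and 0 of 30 in 639 (0.224%), where 1 wider gene was lower (1.01%). Hsp90aa1 had 0.27 and 0.28 there, Hspe1 0.14 and 0.08, and Stip1 0.39 and 0.32. The top cells of these libraries also stood out less in Hspb1 itself, by 1.54 and 1.53 against 2.55 at baseline. Depth and mitochondrial share were alike in top and other baseline cells (12664 and 12423 UMIs, 7.35% and 7.36%), and median summed markers were 65285 and 55875 CPM for smooth muscle, 1735 and 2235 CPM for fibroblasts and 287 and 198 CPM for cardiomyocytes. Their part in the chaperone ratios was not tested. The bound is not a gap: 75 cells lay within 10% of it.

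Fibroblasts with the most Hspb1 differed in other chaperones. In their top 10%, 2, 3 and 3 of the 9 other heat shock genes were higher by the fold in SHF_Baseline, SHF_AngII and CNC_AngII (1.09%, 1.8% and 5.1% of genes). Hspa1a (1.18, 1.16 and 0.90) and Hspa1b (1.05, 1.22 and 0.69) were among them in each library, while Hspe1 had 0.09, 0.18 and -0.03. In SHF_Baseline the 2 genes past the fold were this pair alone, which may be 1 signal. Early genes lower by the fold numbered 2, 1 and 1 (0.72%, 1.85% and 7.58%) and those higher by it 0, 0 and 2 (1.09%, 1.8% and 5.1%), the 2 being Klf2 (0.79) and Fosl2 (0.59). Hspb1 thus went with the Hsp70 pair in fibroblasts and with Hspe1 and Hsp90aa1 in baseline smooth muscle. In the top macrophages Hspa1a (0.70) and Hspa1b (0.63) passed the fold (2.23%). The bound there was only 113 CPM of Hspb1, against 1068, 1596 and 1432 CPM in the fibroblasts of the 3 libraries. Those macrophages were thus picked on few Hspb1 UMIs, and they were shallower than the rest (9466 against 11229 UMIs). The part of depth was not tested.

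Cells rich in Hsp70 transcripts had another pattern. In the top 10% of baseline smooth muscle by Hspa1a and Hspa1b, Dnajb1 (1.26), Dnaja1 (0.95), Hsph1 (0.82) and Hspa8 (0.71) passed the fold (4 of 8 others, 0.756% of genes), while Hspb1 (0.01), Hsp90aa1 (0.00) and Hspe1 (-0.15) were level. Early genes were lower in them, 10 of 24 by the fold (1.2% of 7145 genes). They included Nr4a3 (-1.13), Nr4a2 (-1.06), Nr4a1 (-0.96), Zfp36 (-0.89) and Egr1 (-0.71). In the top cells of the AngII smooth muscle 0 of 24 early genes were lower by the fold (0.279% and 0.249% of genes), and 1 and 3 were higher by it (2.13% and 0.865%), with Klf2 (0.62 and 0.88) in both. Of the 8 other heat shock genes 1 and 0 were higher by the fold there (2.13% and 0.865%), the 1 being Dnajb1 (1.16 in SHF_AngII). In macrophages 14 of 24 early genes were higher by it (2.63%), led by Btg2 (1.23), Jun (1.09) and Ier5 (0.98), in cells of lower depth (8254 against 11516 UMIs). The top smooth muscle cells were shallower too, at 11300.5 against 12558, 10776 against 13653 and 11187 against 13728.5 UMIs. So were the top fibroblasts of SHF_AngII (13478.5 against 15759) and CNC_AngII (11850 against 12578), but not of SHF_Baseline (10334.5 against 9416). The part of depth was not tested. In fibroblasts Hsph1 (1.46, 0.85 and 1.09), Dnajb1 (1.24, 1.12 and 0.71) and Hspb1 (1.28, 0.89 and 0.81) were higher by the fold in each library, 3 of 8 others (0.746%, 1.86% and 4.89%). Fibroblasts shared Nr4a2, Nr4a3 and Myc as lower in all 3 libraries, from -1.68 to -1.07, with 4, 5 and 5 early genes lower by the fold (2.54%, 1.91% and 4.19%).

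**Figure D5:**
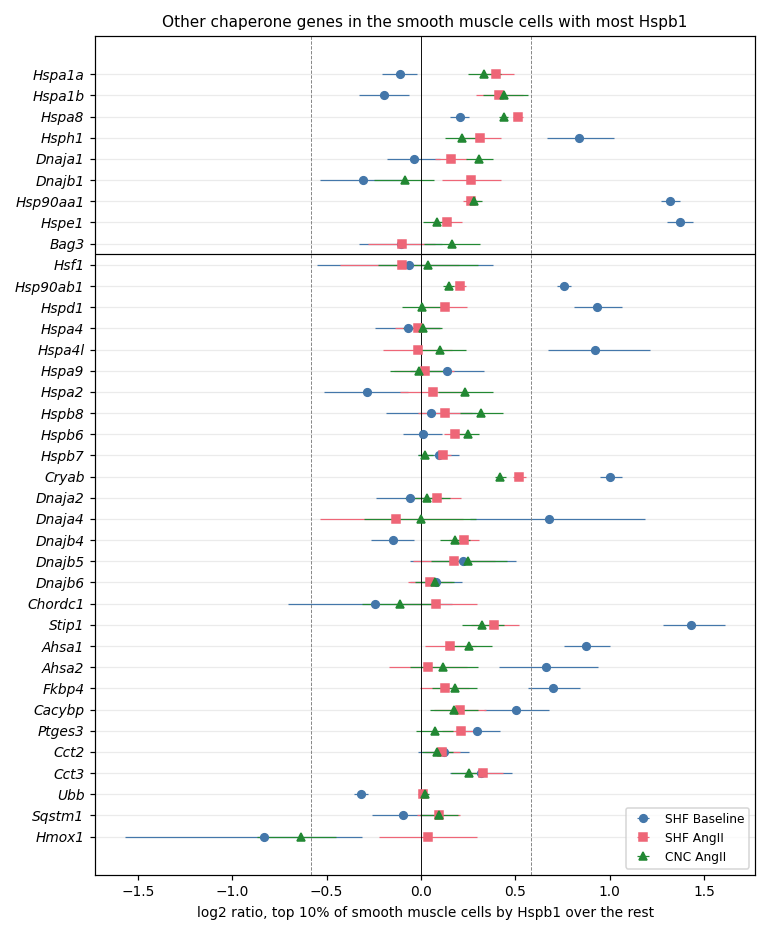
Log2 ratio of the top 10% of smooth muscle cells by Hspb1 over the other smooth muscle cells, for the other heat shock members (above the line) and genes of the wider chaperone list (below), 1 point per library with 95% counting intervals; dashed lines mark 1.5-fold. Only SHF Baseline points such as Stip1 (1.43), Hspe1 (1.37) and Hsp90aa1 (1.32) pass the upper dashed line.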

How the data were processed

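Single-cell UMI count tables of 3 libraries were used as the authors deposited them: whole-number counts per gene and cell, with no normalization. The submitters' processing notes name fastp, STAR 2.5, HTSeq 0.6.1 and mm10 without roles, and per the labels' protocols the libraries were 10x Chromium 3' v3. The tables held 9412, 11166 and 11098 barcodes and 92474476, 147854476 and 150954701 UMIs. Barcodes needed 500 detected genes and a mitochondrial share of 10% or less, and Scrublet (scanpy 1.11.5) doublets (207, 192 and 279) were left out, leaving 8374, 9299 and 10194. Gene names were joined through RefSeq synonyms. UMIs were summed per gate and expressed as CPM with a pseudocount of 1, using Python 3.11.15, numpy 2.4.6, scipy 1.17.1 and pandas 2.3.3; TMM factors came from edgeR 4.0.16 in R 4.3.3. Intervals are exact Poisson for sums and conditional binomial for ratios, at 95%, and cover counting error only. Scripts were tested on simulated data. Each group is 1 library, so nothing was tested. All members are described; from each wider list the 3 highest and 3 lowest ratios of the smooth muscle AngII contrast at 50 CPM or more are named, except 1 gene that is not reported here. The members and lists were chosen with earlier results of these data known. Alternatives covered cell filters, doublets, gates, totals, scaling, thinning, pseudocount, minimum and free RNA. Promoter windows of Fosl1, Egr1, Egr3, Ier2, Myc, Hspa8 and Hsp90aa1 were not used here.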

Additional observations from a re-analysis of the deposited data

Results flagged for a closer look

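Hsph1 stood in opposite directions in the 2 cell types when SHF_AngII was set against SHF_Baseline. Hspe1 was lower in smooth muscle and near level in fibroblasts. Hsph1 had a log2 ratio of 0.63 in smooth muscle and -0.54 in fibroblasts, a difference of 1.16. Hspe1 had -0.74 in smooth muscle and 0.05 in fibroblasts, a difference of -0.79. With 1 library a group neither difference was tested.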

How the results depend on the processing

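No paired analysis was possible because each group is 1 library, so the groups compared share fewer than 2 replicate numbers. Of 3897 member values under the alternatives, 2541 moved by less than their counting interval, 1356 moved by more and 0 of those called changed sign. The settings without Egr3, with Hspa1a and Hspa1b summed, and with only cells of 8000 to 16000 UMIs were chosen after seeing the data. For SHF_AngII over SHF_Baseline in smooth muscle, the early median (-0.81) was -0.76 with the looser and -0.99 with the stricter cell filter (120 baseline cells), -0.84 without mitochondrial and ribosomal protein genes and -0.65 under TMM scaling; the heat shock median (-0.49) was -0.42 with the stricter filter and -0.34 under TMM. In fibroblasts the early median (-0.85) was -0.91 with the stricter filter, -0.89 with stricter gates, -0.80 without mitochondrial and ribosomal genes, -0.64 under TMM and -0.82 by per-cell shares. The fibroblast heat shock median (-0.05) was -0.084 with the stricter filter, -0.11 by per-cell shares, -0.089 in thinned cells and -0.11 at 8000 to 16000 UMIs. It had the other sign with stricter gates (0.0024), without mitochondrial and ribosomal genes (0.0099), under TMM (0.16), at a minimum of 50 CPM (0.044) and with the pair summed (0.044). For CNC_AngII over SHF_AngII in smooth muscle, the early median (-0.08) was -0.041 by per-cell shares, -0.026 thinned and -0.037 at 8000 to 16000 UMIs, and the heat shock median (-0.13) -0.076 with 5% free RNA subtracted and -0.18 at 8000 to 16000 UMIs. In fibroblasts the heat shock median (0.01) had the other sign under TMM (-0.0093), by per-cell shares (-0.014), thinned (-0.057) and at 8000 to 16000 UMIs (-0.013). For macrophages over smooth muscle, the early median (-0.62) was -0.54 with doublets kept, -0.80 under TMM, -0.33 by per-cell shares, -0.52 thinned, -0.67 with free RNA subtracted, -0.67 with no minimum, -0.37 at 50 CPM, -0.49 without Egr3 and -0.51 at 8000 to 16000 UMIs. The heat shock median there (0.24) was 0.17 with the stricter filter, 0.059 under TMM, 0.53 at 50 CPM and -0.018 with the pair summed. For macrophages over fibroblasts, the early median (-1.01) was -1.09 without mitochondrial and ribosomal genes, -0.89 by per-cell shares, -0.88 thinned, -1.11 with no minimum, -0.87 at 50 CPM and -1.18 at 8000 to 16000 UMIs, and the heat shock median (-0.19) was -0.088, -0.11 and -0.30 by per-cell shares, at 50 CPM and at 8000 to 16000 UMIs. The fibroblast over smooth muscle medians, averaged over the 3 libraries, were 0.24 (early) and 0.25 (heat shock) under TMM, from 0.49 and 0.50. The Spearman correlation of the early sum with Hspa1a and Hspa1b had the other sign without thinning in baseline smooth muscle (0.023, from -0.10) and in fibroblasts of SHF_AngII (0.17) and CNC_AngII (0.26), and at 5000 UMIs in the same fibroblasts (0.0085 and 0.030). The cause of these shifts was not tested.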
